A study of Mus musculus with 6 samples.

Results

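The features described here are the 100 rows of the count matrices that set NG2/oligodendrocyte progenitor cells (OPCs) apart most from the other cells of the mouse suprachiasmatic nucleus (SCN) at PND10 and PND30. They were chosen by their levels at these stages. UMIs (unique molecular identifiers, each counted as 1 captured transcript) were summed per matrix row over the PND10 and PND30 nuclei of each annotated cluster and scaled to CPM, the count of a row relative to the total of the cluster. Of 32285 rows, 3809 had a CPM of 50 or more in cluster 10, the OPC cluster, and the 100 with the largest ratio of (CPM + 5) in cluster 10 over the highest of the other 8 clusters compared were taken. Levels at GD17.5 and PND2 did not enter the choice. No file used here pairs rows with gene names, so members are called by their rank in this ratio, and the label of the cluster could not be checked against marker genes.

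Nuclei came from the dissected SCN of wild-type C57BL6/J mice, and for each stage the tissue of 10 fetuses or pups of both sexes, from at least 5 mothers, had been pooled. The 4 stages were GD17.5 and PND2, with 1 library each, and PND10 and PND30, with 2 libraries each. The methods give the additional PND10 and PND30 libraries as a repeated library preparation, and nothing in the labels says that they came from other animals, so p-values measure only the spread between libraries. The cluster of each nucleus is the annotation of the authors, who removed predicted doublets before making it and clustered the merged nuclei of all stages, so that the members' own counts were among the data clustered. Differences between cluster 10 and other clusters are therefore given as descriptions without a test.

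Oligodendrocyte progenitors, also called NG2 cells after the proteoglycan on their surface, are dividing glial cells that depend on platelet-derived growth factor. They arise from neuroepithelial and radial glial progenitors of the embryonic brain, which also give rise to astrocytes and ependymal cells, spread through grey and white matter, and mature into the oligodendrocytes that wrap axons in myelin. A pool of them persists in the adult brain.

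Where 6 values are given in a row below, they follow the libraries in the order GD17.5, PND2, PND10 replicates 1 and 2, and PND30 replicates 1 and 2. Cluster 10 held 103, 183, 77, 268, 15 and 46 nuclei in these. The median nucleus of a whole library had between 3144 and 12106 UMIs. Since 87.3% of the cluster 10 UMIs of the later stages came from PND10, the choice of members leans on that stage. Any pair of libraries shared between 0 and 9 barcodes among the annotated nuclei.

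Between them the members covered a wide range of levels. Their CPM in cluster 10 at PND10 and PND30 ran from 50.1 to 5764, with a median of 190. The 5 most abundant members supplied 34.5% of the members' UMIs, and 17 members reached a CPM of 1000. The ratio that chose them ran from 2.03 to 64.2, with a median of 3.08, and 19 members had a ratio of 5 or more. At the limit of the choice, the last members had ratios of 2.053 and 2.033 and the next rows in order had 2.030 and 2.029, so the list ends within a continuum. Most members were thus enriched in the OPC cluster and not exclusive to it.

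The cluster with the next highest level differed among members. A neuronal cluster came next for 41 members, among them 29 with extra-SCN neurons in that place. Mature astrocytes came next for 24 members, mature oligodendrocytes for 24 and microglia for 11.

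The member that stood furthest apart was rank 1. Its CPM in cluster 10 was 488, 852, 1219, 1491, 1670 and 1103, while no other cluster exceeded 16.8 at the later stages. In nuclei thinned to 1500 UMIs, a UMI of rank 1 was found in 28.4% of cluster 10 nuclei at GD17.5 (95% Clopper-Pearson interval 19.9 to 38.2%), 61.3% of them in the PND2 library, and in 77.9%, 82.6%, 80.0% and 75% of them in the later libraries. In neurons, taken for comparison, the thinned shares were between 0.358% and 1.28% in the 6 libraries. Whether these UMIs were free RNA or the neurons' own was not tested. Without thinning the cluster 10 shares were 39.8%, 72.1%, 94.8%, 91.0%, 100% and 87.0% in the same order, at median depths between 2015.5 and 8945 UMIs per nucleus, and in neurons they were 0.875% to 4.59% at median depths between 3264.5 and 13215. The contrast with neurons at PND10 and PND30 is what chose rank 1 and is a description. At GD17.5 and PND2, which the choice did not use, its share of nuclei was above that of neurons, but most cluster 10 nuclei had no UMI of it at GD17.5, thinned or not.

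Rank 2 had a CPM of 113, 213, 356, 458, 594 and 489. Rank 4, the most abundant member, had 2895, 4672, 6243, 5508, 5742 and 5780. Both were higher at each successive stage up to PND10 and had their lowest level in the GD17.5 library. Rank 7 went another way, with 997, 713, 722, 805, 663 and 845, and ranks 6 and 10 were not lowest at GD17.5 either. Rank 6 stood at 126, 166, 91.4, 109, 43.0 and 17.8 and was lowest in both PND30 libraries. Of the remaining ranks up to 10, ranks 3, 8 and 9 were lowest at GD17.5, with 83.7, 106 and 85.4, and had 143, 173 and 101 at PND2 and 203 to 400, 269 to 301 and 160 to 267 over the 4 later libraries. Rank 10 had 187, 156, 265, 233, 258 and 382.

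**Figure D1:**
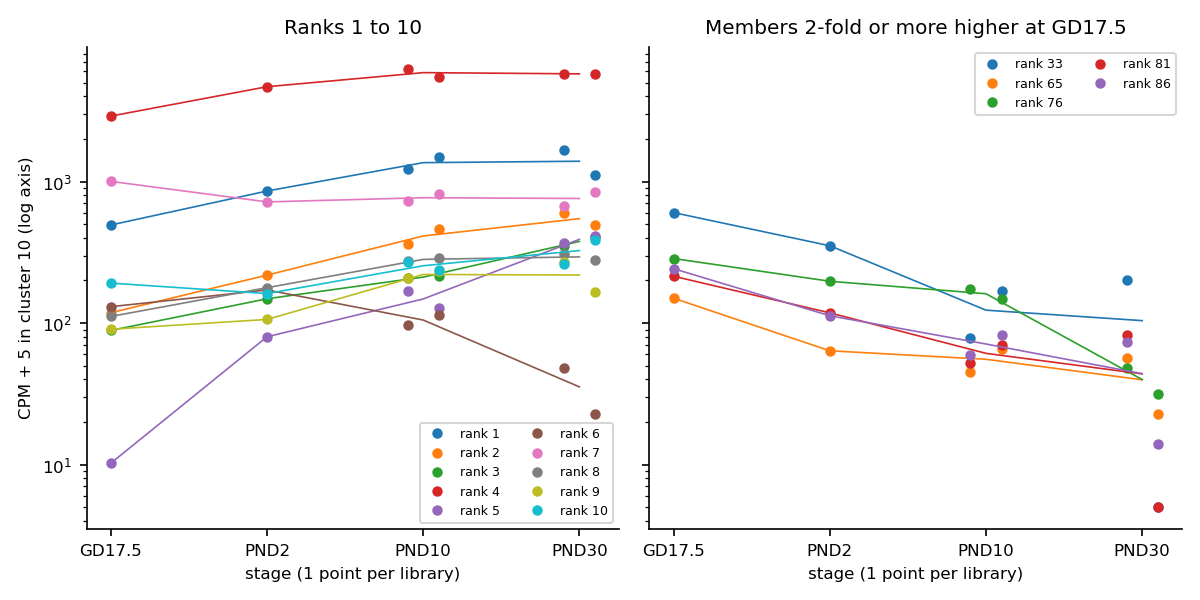
Levels of named members in cluster 10, as CPM + 5 on a log axis, with 1 point per library and a line through the stage means. On the left, most of ranks 1 to 10 have their lowest point at GD17.5. On the right are the 5 members whose GD17.5 level was 2-fold or more above the later one, and all 5 have their lowest point in PND30 replicate 2, where ranks 33 and 81 have a CPM of 0 and their points coincide.

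Before birth, fewer members had their highest level in the OPC cluster taken as a whole. Over the clusters with at least 10 nuclei, 59 of the 100 members were highest in cluster 10 at GD17.5 and 82 at PND2. Among all 3809 rows with a CPM of 50 or more, the shares were 18.5% and 11.4%. A level at least 2-fold over the highest other cluster was found for 30 members at GD17.5 and 41 at PND2, against 2.05% and 2.23% of all such rows. The median log2 ratio of cluster 10 over the highest other cluster was 0.32 at GD17.5 and 0.74 at PND2 for the members, and −0.54 and −0.75 for all such rows. Membership at the later stages thus went with a higher place of cluster 10 at the stages that the choice did not use.

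Where cluster 10 was not the highest at GD17.5, the highest cluster was the unidentified neuronal cells (10 nuclei) for 13 members, immature astrocytes and ependymal cells (cluster 08) for 10, early SCN neurons (cluster 01) for 9, microglia (14 nuclei) for 6 and Vip+ neurons for 3. At PND2 it was endothelial cells (16 nuclei) for 10 members, unidentified neuronal cells (26 nuclei) for 4, and Avp+ neurons and microglia for 2 each. Many of these top places thus rest on clusters near the minimum of 10 nuclei, and over clusters of at least 20 nuclei 70 members were highest in cluster 10 at GD17.5 and 91 at PND2. Grouped by the cluster that came next at the later stages, members with mature oligodendrocytes next were highest in cluster 10 for 19 of 24 at GD17.5, those with mature astrocytes next for 17 of 24, those with neurons next for 17 of 41 and those with microglia next for 6 of 11. At PND2 the counts were 17 of 24, 21 of 24, 35 of 41 and 9 of 11, so the group with neurons next differed most between the early stages.

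The level of the members in cluster 10 itself was lower early. At GD17.5, 56 members were at least 2-fold below their pooled PND10 and PND30 level, against 11.4% of all rows with a CPM of 50 or more, and at PND2 21 members were, against 2.78%. The median log2 ratio to the later level was −1.08 at GD17.5 and −0.51 at PND2, where the rows as a whole stood at 0.08 and −0.02. From GD17.5 over PND2 to the mean of PND10 the level was higher at each step for 68 members, against 24.4% of the rows, and lower at each step for 7, against 27.8%. Between GD17.5 and PND2 alone, 15 members were at least 2-fold higher at PND2, against 5.49%. By next cluster, the median log2 ratio of GD17.5 to the later level was −1.47 for members with mature oligodendrocytes next, −1.07 with neurons next, −0.88 with mature astrocytes next and −0.35 with microglia next. The members were chosen for a high level in cluster 10 at PND10 and PND30, so a lower level at another stage is partly fixed by the choice, and the shares of rows not so chosen do not account for this. With 1 library per early stage, these differences have no replicate check.

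**Figure D2:**
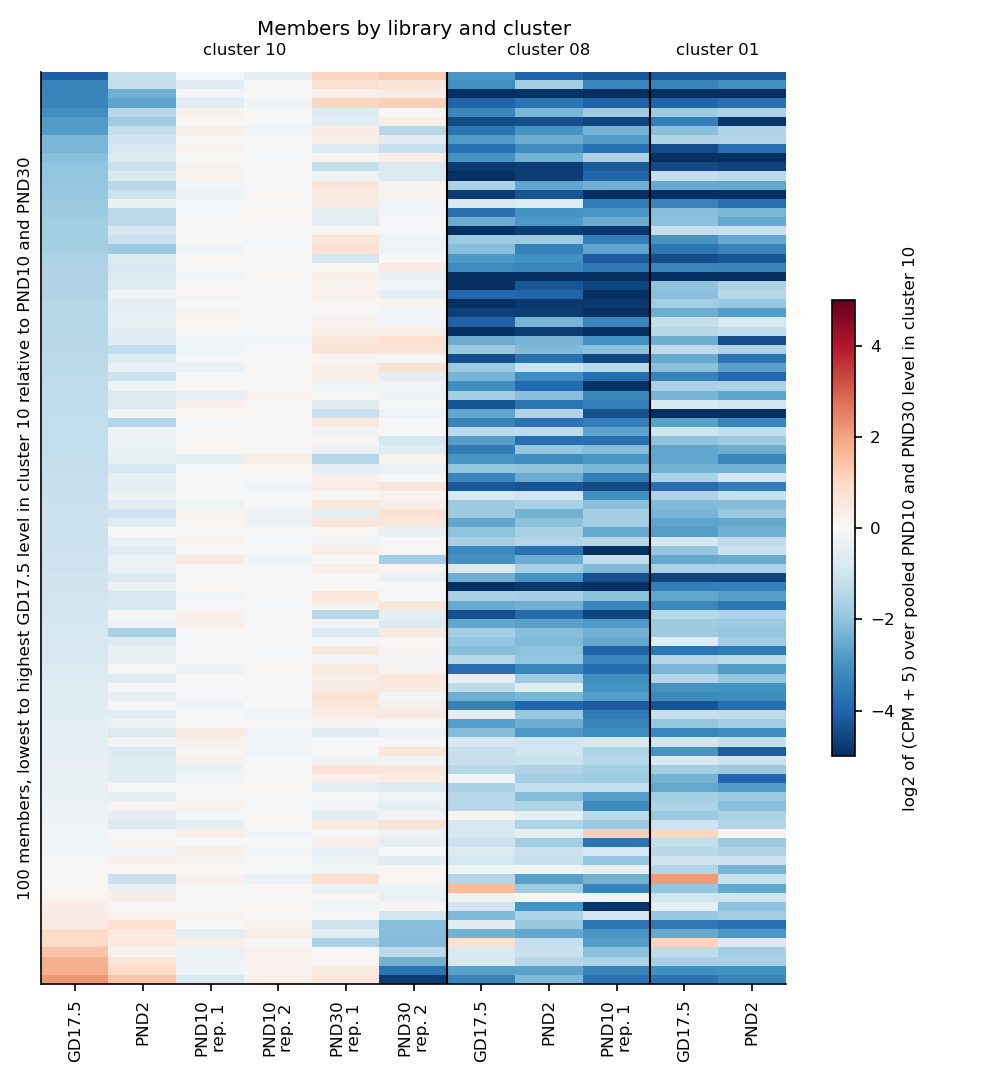
Each line is 1 of the 100 members, ordered by its GD17.5 level in cluster 10 relative to PND10 and PND30, and the colour is the log2 of (CPM + 5) over the pooled PND10 and PND30 level in cluster 10. Blue dominates the GD17.5 column of cluster 10, where 56 members are at least 2-fold lower, and the columns of clusters 08 and 01.

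The members furthest below their later level at GD17.5 were ranks 5, 38, 34, 52 and 79. Rank 5 (matrix row 18717) had a CPM of 5.23 at GD17.5, from 3 UMIs, followed by 75, 163, 123, 362 and 409. Rank 52 (matrix row 16893) had 5.23, 10.9, 63.9, 84.2, 198 and 222. Both were higher in each PND30 library than in either PND10 library. Rank 34 had 20.9, 42.4, 225, 246, 293 and 320, and rank 38 had 1.74, 25, 42.0, 64.6, 112 and 97.8. For ranks 5, 34 and 52 the next cluster at the later stages was mature oligodendrocytes, for rank 38 mature astrocytes and for rank 79 extra-SCN neurons. At PND2 the members furthest below the later level were ranks 52, 34, 43, 15 and 80, all with mature oligodendrocytes next, with log2 ratios between −2.64 and −1.64.

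Only 5 members were at least 2-fold higher at GD17.5 than later, against 5.12% of all rows with a CPM of 50 or more, so this count is near the background. They were ranks 33, 81, 86, 65 and 76, and for the 4 other than rank 76 microglia came next at the later stages. Rank 33 (matrix row 20134) had a CPM of 598, 347, 73.1, 164, 198 and 0, and it was the single member at least 2-fold higher at PND2, against 1.81% of the rows. The level of rank 33 in PND30 replicate 1 was above the 26.7 CPM that a count of 0 allows in replicate 2, but this limit takes UMIs as independent. UMIs of these 5 members sat in few nuclei of PND30 replicate 1. After thinning, 11 of its 15 nuclei had none, and 2 nuclei held 80% of the 10 UMIs. Whether the 2 PND30 libraries differed beyond the spread between nuclei was not tested. Rank 81 also had a CPM of 0 in PND30 replicate 2 alone, with 209, 113, 47.5, 64.6, 77.5 and 0. Rank 76 (matrix row 9411) had 281, 192, 168, 144, 43.0 and 26.7 and was low in both PND30 libraries.

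The lower level of the members before birth was not shared evenly by the nuclei of the cluster. The median nucleus of cluster 10 drew 1.88%, 6.63%, 7.24%, 6.91%, 7.17% and 6.91% of its UMIs from the members. At GD17.5, however, 65 of 103 nuclei lay below 4% (63.1%, Clopper-Pearson interval 53.0 to 72.4%) and 38 at or above it, with only 5 between 3% and 5%. At PND2, 43 of 183 nuclei lay below 4% (23.5%, 17.6 to 30.3%), with 7 between 3% and 5%. At PND10 it was 1 of 77 and 5 of 268 nuclei, and at PND30 it was 0 of 15, which allows a share of up to 21.8%, and 0 of 46, which allows up to 7.71% (upper limits of the Clopper-Pearson intervals, which cover counting error only). The members' share thus formed 2 ranges with few nuclei between them at the early stages, and nearly all nuclei lay in the higher one later. In clusters 08 and 01 of the GD17.5 library, 1 of 489 and 63 of 4048 nuclei reached 4%.

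When all nuclei were thinned to 1500 UMIs, a cluster 10 nucleus held a median of 31 member UMIs at GD17.5, 100 at PND2 and 106 in PND10 replicate 1, from a median of 16, 33 and 37 different members. Early SCN neurons held a median of 27 at both early stages, from 13 and 14 members. The share of cluster 10 nuclei above the 99th percentile of all neurons of the same library was 34.3%, 75.7%, 98.7%, 98.0%, 100% and 100%. These were 35 nuclei at GD17.5 and 137 at PND2, beside the 38 and 140 that lay at or above 4% without thinning.

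**Figure D3:**
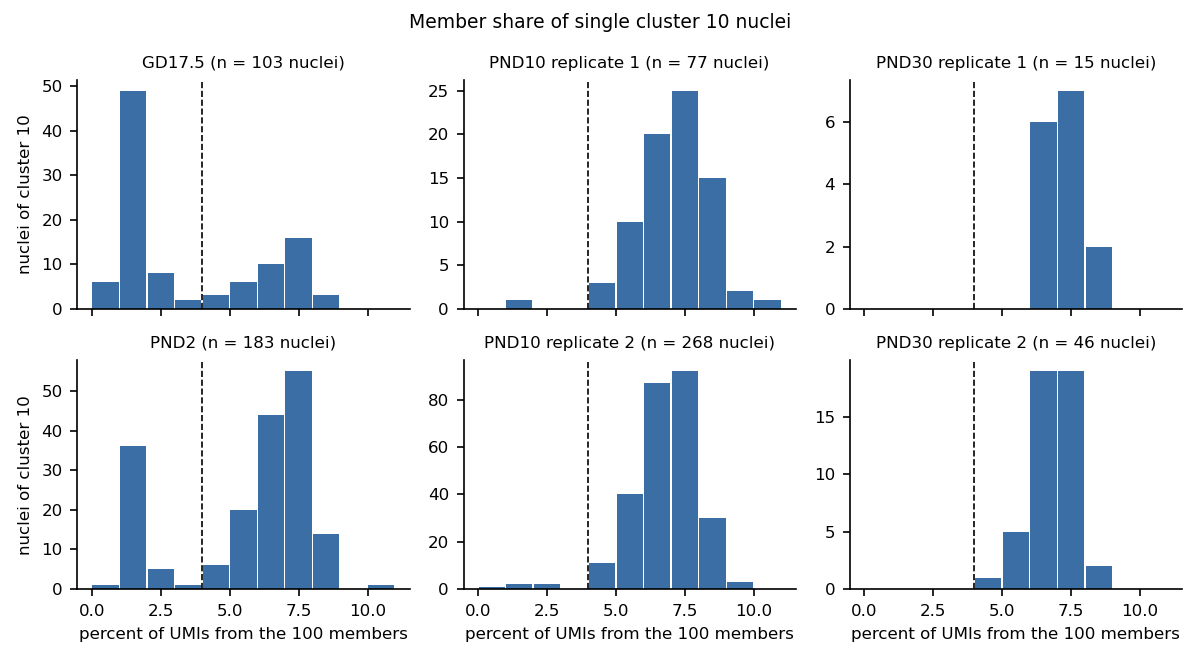
Number of cluster 10 nuclei by the percentage of their UMIs that came from the 100 members, in bins of 1%, with 1 panel per library and a dashed line at 4%. GD17.5 and PND2 have a low and a high peak with few nuclei between, and the PND10 and PND30 libraries have the high peak almost alone.

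The 2 ranges appeared again when one part of the members was used to divide the nuclei and the rest to measure them. Nuclei were put in a lower or an upper range at 2% of UMIs from the 50 odd-ranked members, a limit set after the values had been seen. At GD17.5 the 50 even-ranked members then made up a median of 0.625% of UMIs in the 69 nuclei of the lower range and 3.87% in the 34 of the upper range. At PND2 the medians were 0.885% in 52 nuclei and 4.16% in 131. The upper range thus came close to the 4.10% to 4.41% found in the upper range of the later libraries. In PND10 replicates 1 and 2, 10 of 77 and 27 of 268 nuclei fell in the lower range, with even-ranked medians of 3.34% and 3.30%. There the limit cut into the high group, so the lower range does not mean the same at all stages. For comparison, the same median was 0.645% in cluster 08 and 1.08% in early SCN neurons at GD17.5. Of the GD17.5 nuclei, 7 had 1.5% to 2.5% of UMIs from odd-ranked members and fell below the limit, and 8 fell above it. At PND2 these were 9 and 36 of the 183 nuclei. When even-ranked members set the ranges instead, 7 nuclei changed range at GD17.5 and 10 at PND2. These are ranges of a score and not cell types.

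**Figure D4:**
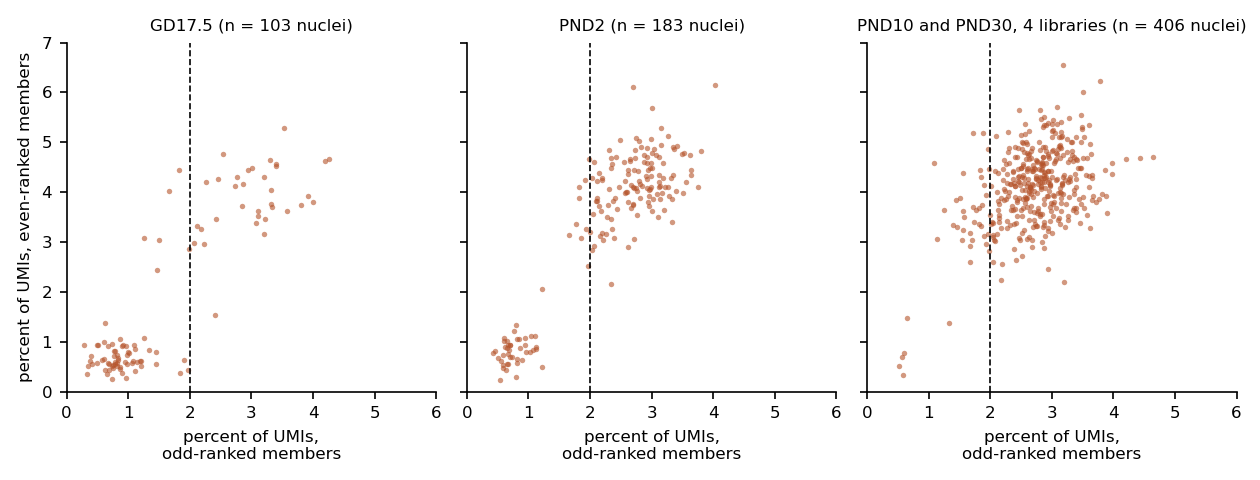
Each point is 1 nucleus of cluster 10, with the percentage of its UMIs from odd-ranked members on the horizontal axis and from even-ranked members on the vertical axis, and a dashed line at the 2% limit. At GD17.5 and PND2 the nuclei form a group near the origin and a group where both percentages are high, and in the 4 later libraries nearly all lie in the latter.

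The median nucleus had 5112 UMIs in the lower and 4734 in the upper range at GD17.5, and 5724.5 and 4405 at PND2, so the lower range was the deeper one in both.

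Within the upper range, most members stood close to their later level already before birth. Each member was measured in ranges set by members of the other parity, odd ranks by even ones and even ranks by odd ones. In the upper range 13 members at GD17.5 and 7 at PND2 remained at least 2-fold below the PND10 and PND30 level, against 8.35% and 2.57% of all rows with a CPM of 50 or more in the range set by odd ranks. The median log2 ratio to the later level was −0.16 at GD17.5 and −0.18 at PND2. In the lower range 70 and 77 members were at least 2-fold below, against 16.1% and 12.2% of the rows, with medians of −2.16 and −1.80. These ratios too are taken to the level that chose the members. The 56 members that were at least 2-fold lower in the whole GD17.5 cluster thus stand against 13 in the upper range alone. Conversely, 8 members were at least 2-fold above their later level in the upper range at GD17.5, against 2.13% of the rows, among them ranks 6 and 7 with log2 ratios of 1.53 and 1.08. Ranks 33, 65, 81 and 86, which were higher early in the whole cluster, were also among them, with 1.62, 1.14, 1.55 and 1.06. At PND2 only 1 member was at least 2-fold above, rank 6 with 1.15, against 0.525%. With the upper range alone, 37 of the 50 even-ranked members were highest in cluster 10 at GD17.5 and 45 at PND2. With all nuclei of the cluster these counts were 26 and 41, so the 2 stages lay closer together in the upper range.

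Rank 1 divided the nuclei almost completely. At GD17.5 it had a CPM of 22.5 in the lower and 1246 in the upper range, and at least 1 UMI in 3.12% and 100% of the nuclei. At PND2 it had 3.70 and 1205, with UMIs in 2.38% and 92.9% of the nuclei. Its upper levels were near the 1395 of the pooled later stages. The shares of nuclei given here and for the ranges below are without thinning.

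Abundant members were divided to very different degrees. Over the 17 members with a later CPM of 1000 or more, the log2 ratio of the upper over the lower range at GD17.5 ran from −0.20 for rank 54 to 5.51 for rank 1. Rank 4 had a CPM of 829 in the lower and 7878 in the upper range, rank 28 had 582 and 4477, and rank 50 had 678 and 4251. Their UMIs were nonetheless found in 37.7%, 36.2% and 69.6% of the nuclei of the lower range, and in all nuclei of the upper one. Rank 90, the member most abundant in neurons and in cluster 08, had 1815 and 4221. Rank 59 had 2389 and 4769, with UMIs in 92.2% and 100% of the nuclei, and rank 31 had 788 and 1608, so these 3 differed far less between the ranges than ranks 4, 28 and 50. Odd ranks such as rank 1 were measured in ranges set by even ranks, and ranks 4, 28 and 50 in ranges set by odd ones. In the lower range set by odd ranks, the even-ranked share had a median of 0.625% but a 95th percentile of 2.97%. The lower levels of ranks 4, 28 and 50 can rest partly on such nuclei, so their contrast with rank 1 is not like for like.

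A smaller set of members was low in both ranges, and this set includes the ones that differed most with age. In the upper range at GD17.5, rank 5 had a CPM of 13.7 (3 UMIs), rank 34 of 53.5 (9 UMIs) and rank 52 of 5.95 (1 UMI), with log2 ratios to the later level of −3.21, −2.11 and −3.18. Rank 38 had no UMI there. At PND2 ranks 34 and 52 were still low in the upper range, with log2 ratios of −1.96 and −2.20, while rank 5 had reached −0.77. For these members the difference with age was present within the upper range. UMIs are few, and no replicate is at hand at either stage.

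**Figure D5:**
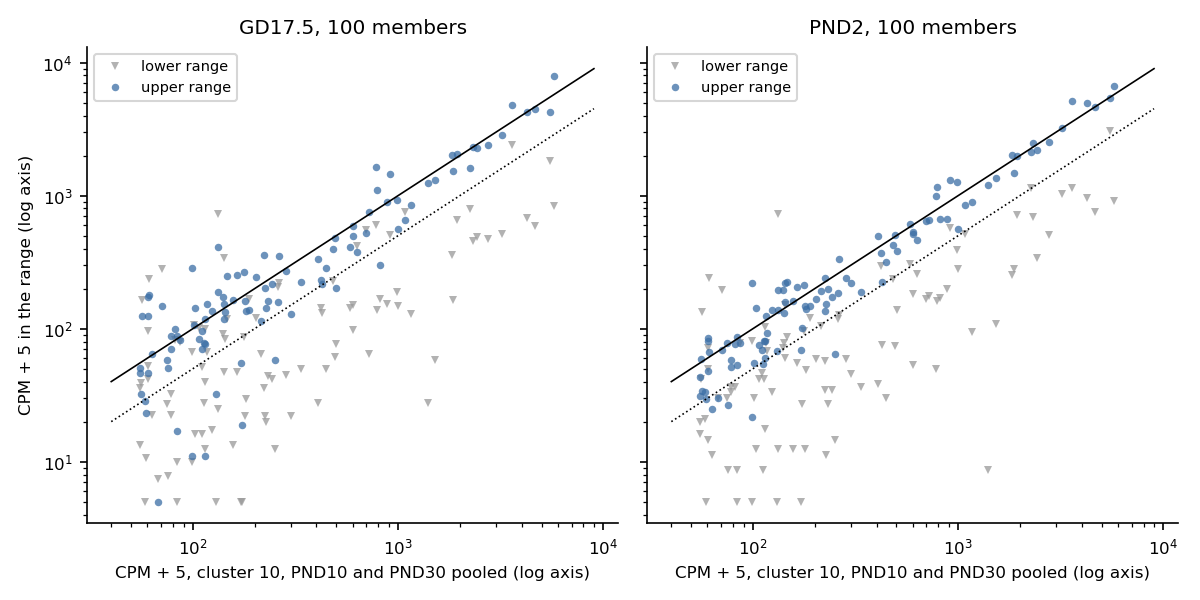
Level of each member in the lower range (grey triangles) and the upper range (blue circles) of cluster 10 at GD17.5 and PND2 against its pooled PND10 and PND30 level, as CPM + 5 on log axes, with a solid line at equal levels and a dotted line at 2-fold lower. Circles follow the solid line except for 13 members at GD17.5 and 7 at PND2 that lie below the dotted one, and most triangles lie below it.

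The 5 members that were higher early had a higher level in the lower than in the upper range at GD17.5, and 4 of them were lower in cluster 08 and in early SCN neurons than in either range there. At GD17.5 rank 33 had a CPM of 718 in the lower range, where 92.2% of nuclei had a UMI, and 403 in the upper range, where 30.8% had one. At PND2 the levels were 721 and 191 and the shares 90.5% and 23.4%. In cluster 08 rank 33 had a CPM of only 8.62 at GD17.5 and 23.5 at PND2, with a UMI in 3.68% and 9.79% of nuclei, and in early SCN neurons 5.31 and 8.66. Rank 81 had 231 and 174 in the ranges at GD17.5 and 4.70 in cluster 08, and rank 86 had 276, 143 and 35.7. Rank 65 had 160, 119 and 27.8. Ranks 33, 65, 81 and 86 were all at least 2-fold higher in the lower than in the upper range at PND2. Rank 76 differed from these 4, since it also reached 238 in cluster 08 and 294 in early SCN neurons at GD17.5, and at PND2 it had 145 in the lower and 217 in the upper range.

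Outside the members, nuclei of the lower range correlated more with cluster 08 than with the upper range. Lists of rows for other cell types are given beside this as a description. To describe this, 100 rows were taken for mature astrocytes, mature oligodendrocytes and microglia by the same rule. At GD17.5 the astrocyte rows made up a median of 0.623% of UMIs in the lower range, 0.134% in the upper range and 1.10% in cluster 08, and at PND2 1.63%, 0.184% and 1.90%. The mature oligodendrocyte rows went the opposite way, with 0.185% in the lower and 0.327% in the upper range at GD17.5 and 0.193% and 0.308% at PND2. The microglia rows showed no common direction, with 0.0307% in the lower range, 0.0244% in the upper range and 0.0285% in cluster 08 at GD17.5, and 0.0299%, 0.0416% and 0.0393% at PND2. Over the 3709 rows with a CPM of 50 or more that are no members, in sums of 34 nuclei each at GD17.5, the log2 (CPM + 5) of the lower range had a Pearson r of 0.841 with cluster 08, 0.713 with the upper range and 0.596 with early SCN neurons. At PND2, in sums of 52 nuclei, the values were 0.875, 0.803 and 0.638. These correlations run across genes of 1 library, which are not independent replicates, and share its free RNA and base composition. How the lower range came to be annotated as OPCs was not tested.

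Cluster 08, immature astrocytes and ependymal cells, drew fewer UMIs from the members at each stage. The members made up 1.55% of its UMIs at GD17.5 (489 nuclei), 1.28% at PND2 (664 nuclei) and 0.680% in PND10 replicate 1 (104 nuclei), the last library with 10 or more nuclei of it. In cluster 10 they made up 3.48%, 5.29%, and 6.89% ± 0.19 at PND10 and 7.09% ± 0.43 at PND30 (SD, n = 2 libraries each). Early SCN neurons stood at 1.94% at GD17.5 and 1.92% at PND2, above cluster 08. A part of this came from few members, since the 5 with the highest level supplied 49.5% of the members' CPM in cluster 08 at GD17.5 and 39.6% in early neurons, with rank 90 first in both.

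Member by member, 56 were at least 2-fold lower in cluster 08 than in cluster 10 in the GD17.5 library, 79 in the PND2 library and 96 in PND10 replicate 1, against 8.69%, 12.2% and 20.6% of all rows with a CPM of 50 or more. At least 8-fold lower were 16, 21 and 51, against 0.788%, 1.37% and 4.86%. Cluster 08 was above cluster 10 for 11 members at GD17.5, for none of the 100 at PND2 and for 1 in PND10 replicate 1, against 44.9%, 51.9% and 49.7% of the rows. The PND10 counts use the cluster 10 level that entered the choice, and nothing is read from them. The members that favoured cluster 08 most at GD17.5 were ranks 30, 5, 56, 41 and 90. Rank 30 had a CPM of 243 in cluster 08 and 81.9 in cluster 10 at GD17.5, but 18.9 and 57.6 at PND2, and 3.1 in cluster 08 at PND10. Rank 56 had 61.9 and 26.1 at GD17.5, 68.5 and 83.7 at PND2, and 5.17 in cluster 08 at PND10. Both were thus low in cluster 08 by PND10, rank 30 already at PND2. Their presence in cluster 10 at PND10 follows from the choice of members. Rank 44 was the member with the higher level in cluster 08 at PND10, with 264 there and 135 in cluster 10 of replicate 1.

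Mature oligodendrocytes, the cells that OPCs give rise to, drew 2.05% and 1.74% of UMIs from the members at PND10 and 1.20% and 0.987% at PND30. The PND30 libraries lay below the PND10 ones, while the shares of cluster 10 itself overlapped between the stages, at 7.02% and 6.75% against 7.39% and 6.78%. At PND10 no member was as high in mature oligodendrocytes as in cluster 10, and at PND30 3 and 4 members were, against 43.1%, 42%, 41.3% and 40.8% of the rows with a CPM of 50 or more in the 4 libraries. Rank 1 had no UMI in mature oligodendrocytes in 3 of these libraries and a CPM of 10.8 in PND30 replicate 2. These levels entered the choice of members as pooled values and are a description.

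Between PND10 and PND30 the members' levels in cluster 10 were compared with edgeR's quasi-likelihood test over all 6043 rows that passed the filter on low counts, with Benjamini-Hochberg adjustment, and all 100 members passed that filter. At an adjusted p under 0.05, 0 members were called, against 2 rows or 0.0331% of all rows. An unadjusted p under 0.05 was found for 22 members, against 9.68% of the rows, and DESeq2 called 1 member. With 1 library left out, edgeR called 2 members (PND10 replicate 1 out), 3 (PND10 replicate 2 out), 4 (PND30 replicate 1 out) or 2 (PND30 replicate 2 out). Both PND30 libraries lay above both PND10 libraries for 30 members, against 18.2% of the rows with a CPM of 50 or more, and below for 24, against 25.8%. The median log2 change was −0.01 for the members and −0.01 for all rows. The same cluster 10 counts chose the members, mostly those of PND10, so the direction over the members depends on the choice. With members chosen with stages weighted equally the median was 0.12, and 59 members in place of 48 had a log2 change above 0.

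Of the 6 members with the smallest p, 4 were higher and 2 lower at PND30, and none of them passed the adjusted threshold in edgeR. The log2 change from PND10 to PND30 of rank 5 was 1.47 ± 0.25 (SE), with an edgeR adjusted p of 0.0973 and a DESeq2 adjusted p of 0.0125. For rank 52 it was 1.49 ± 0.29, with an edgeR adjusted p of 0.142. Both were also among the members lowest at GD17.5, so their levels were ordered by age over all 4 stages. Ranks 47 and 3 were also higher at PND30. Rank 47 had a log2 change of 0.84 ± 0.19 and rank 3 one of 0.87 ± 0.22, at edgeR adjusted p values of 0.154 and 0.207. Rank 76 stood at −2.11 ± 0.42, with an edgeR adjusted p of 0.142, and rank 14 at −1.001 ± 0.26, with an edgeR adjusted p of 0.237. Rank 14 had a CPM of 923 and 785 at PND10 and 293 and 551 at PND30, so both PND30 libraries were below both PND10 libraries but lay apart from each other. With 15 and 46 nuclei, the PND30 libraries differed by 2-fold or more for 12 members, and the PND10 libraries for 1.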

How the data were processed

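Nuclei of the SCN were profiled by droplet-based single-nucleus RNA-seq in 6 libraries. Per the labels and methods, the authors counted UMIs with Cell Ranger 5.0.1 on the mm10 reference and deposited the unnormalized count of every row in every barcode, together with a table that gives a cluster for each of 22796 nuclei kept after filters on depth, organelle and ribosomal reads and doublets. Nuclei were placed in libraries by stage suffix and barcode, and 6 could not be placed, none of them in cluster 10. The members and lists were chosen with earlier results of these data known, by the ratio described above (ranks 1 to 10, 99 to 102, the 5 most changed at either end per early stage, and the 5 most favoured by cluster 08 are named, together with ranks 14, 28, 31, 44, 47, 50, 54 and 59, chosen after their values were seen).

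Counts were summed per library and cluster and given as CPM. Ratios use a pseudocount of 5 CPM and understate changes of low members. PND10 and PND30 sums were tested with edgeR 4.0.16 in R 4.3.3 (TMM, filterByExpr), with DESeq2 1.42.0 as an alternative. The edgeR fit was also run on data simulated from the same counts, and its rate of recovery is not given here. The SE of a log2 change is its size over the root of the quasi-likelihood F. Shares of nuclei with a UMI come from nuclei thinned to 1500 UMIs (numpy 2.4.6). Intervals are exact at the 95% level and cover counting error only. Cluster 10 held between 112460 and 1021076 UMIs per library. Other settings of the pseudocount, the limits, the depth and the libraries were tried.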

Additional observations from a re-analysis of the deposited data

Results flagged for a closer look

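Barcodes that the authors' table does not hold, but which lie within its limits on UMIs and genes, were searched for nuclei with 4% or more of their UMIs from the members, the limit used above. There were 36 such barcodes of 4187 at GD17.5 (0.860%), 42 of 11838 at PND2 (0.355%), 10 of 1304 in PND10 replicate 1 (0.767%), 42 of 2001 in PND10 replicate 2 (2.10%) and 15 of 1619 in PND30 replicate 2 (0.926%), all above the 3 counts that a count of 0 allows. These 3 counts are not a background rate for such barcodes. PND30 replicate 1 had 2 of 710. In annotated nuclei of clusters other than 10 the shares were 1.35%, 0.223%, 0.156%, 0.202% and 0.0369% in the same order, so the barcodes left out were above them in every one of these libraries but GD17.5, with overlapping intervals at PND2 (0.256 to 0.479% against 0.115 to 0.390%) and in PND10 replicate 1 (0.368 to 1.41% against 0.0189 to 0.562%). The median depth of these barcodes was between 1480 and 5644.5 UMIs. The annotated limits on mitochondrial and ribosomal reads and on the doublet score could not be applied to them, and their part in the result was not tested.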

How the results depend on the processing

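In the choice of members, 60 of the 100 rows were kept with PND30 alone, between 75 and 96 under the other settings of the choice, and between 82 and 96 without 1 library. The number of members called between PND10 and PND30, 0 in the fit described, was 1 with DESeq2, 6 with no filter on low counts, 3 with nuclei of at least 1500 UMIs, 1 with members chosen with stages weighted equally, and 2 to 4 without 1 library. With a replicate block it was 7 (4 up and 3 down with age), although the libraries share only a number, since deviations of same-numbered libraries from the stage means correlated at 0.011. The counts of members highest in cluster 10 at GD17.5 and PND2 each stayed within 1.5 times. With nuclei thinned to 1500 UMIs they were 65 and 77 in place of 59 and 82, so the 2 stages lay closer together. Without the 5 members with the most UMIs the members' share was 2.26%, 3.28%, 4.50% and 4.72% in cluster 10 at GD17.5, PND2, PND10 and PND30, and 0.988%, 0.837% and 0.548% in cluster 08 at GD17.5, PND2 and PND10, with the order of the stages and clusters kept. Members chosen with stages weighted equally gave 3.55% at GD17.5 and 5.21% at PND2, and the mean over nuclei gave 5.65% at PND2. An alternative chosen after seeing the data, the upper range alone, took the even-ranked members 2-fold lower than later from 25 to 8 at GD17.5 and from 11 to 4 at PND2. It took the even-ranked members highest in cluster 10 from 26 to 37 at GD17.5 and from 41 to 45 at PND2. The PND10 and PND30 share of cluster 10 ran from 6.75% to 7.02% and from 6.78% to 7.39% without 1 library. Single early libraries and 15 to 46 nuclei per PND30 library limit precision, and the cause of these differences was not tested.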
